A study of Homo sapiens with 12 samples.

Results

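Metallothionein genes were followed in spheroids of 3 lines that descend from DU145, a long established cell line of human prostate cancer. The set holds 8 of the 26485 genes of the tables, chosen by name: the metallothioneins MT2A, MT1E, MT1F, MT1G, MT1M, MT1X and MT1A, and MTF1, the transcription factor that switches them on. Of these, 7 had enough reads to enter the test (of 14732 genes tested in all), and MT1G did not.

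Metallothioneins are very small proteins in which cysteines hold zinc, copper and cadmium ions, and they buffer the free level of these metals in the cell. When free zinc rises, MTF1 binds it, moves to short promoter motifs called metal response elements and raises transcription of the metallothioneins and of the zinc exporter SLC30A1. Glucocorticoids and oxidative stress also induce several of them. Zinc handling is a known feature of the prostate, since normal prostate epithelium stores far more zinc than most tissues and prostate carcinoma cells lose it.

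DU145KO cells carry a Crispr/Cas9 edit of ITGA2, the gene of the collagen receptor subunit α2 integrin, and were kept as the transfected cells without surface α2 integrin, with no cloning step named in the methods. DU145KO+α2 cells are DU145KO cells stably transfected with α2 integrin cDNA in the pAWneo2 vector, and DU145KO+vector cells received the empty vector. All 3 lines therefore carry the edit, and the transfected lines had in addition passed selection for the vector, so a comparison with DU145KO also compares vector and selection. Each line had 4 replicates, all of spheroids of 8000 cells grown in serum-free medium for 72 hours, and the level measured is that of mRNA in bulk spheroids, where fewer cells of a kind and less mRNA per cell cannot be told apart.

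The number of reads assigned to genes was 13948734 to 19988111 in a sample. ITGA2 was counted at 259 to 332 CPM (counts scaled to library size, with the TMM factors of edgeR) in DU145KO+α2, at 13.0 to 20.2 CPM in DU145KO+vector and at 15.7 to 25.8 CPM in DU145KO, in the order the labels give. The epithelial markers KRT8, KRT18, KRT19, EPCAM and CDH1 were counted at 46.8 CPM or more in every sample. Among leukocyte markers PTPRC and CD3E had at most 1 read in any sample and CD14 had 21 to 43. Among fibroblast markers DCN had at most 1 read, COL1A2 and COL3A1 at most 3 and PDGFRB 2 to 12, while COL1A1 was counted at 7.65 to 12.1 CPM. Of the endothelial markers VWF had at most 4 reads, PECAM1 8 to 22 and KDR 10 to 50. KLK3 and KLK2, markers of luminal prostate cells, had 0 reads in every sample.

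The 7 metallothioneins lie together on chromosome 16 in hg38, within 75613 bases from the start of MT2A to the end of MT1X (chr16:56608584-56684196). MT1G is on the minus strand and the others on the plus strand, each annotated transcript has 3 exons, and no other gene of the tables overlaps them. MTF1 is on chromosome 1 (chr1:37809574-37859592, minus strand, 11 exons). The coding sequences of the metallothioneins are close copies of each other, and 3 of them are shown, MT2A as the most abundant and MT1E and MT1M because they differed between the lines. They are the GENCODE coding sequences, 186 bases each, and capitals mark the bases that differ from MT2A.
MT2A: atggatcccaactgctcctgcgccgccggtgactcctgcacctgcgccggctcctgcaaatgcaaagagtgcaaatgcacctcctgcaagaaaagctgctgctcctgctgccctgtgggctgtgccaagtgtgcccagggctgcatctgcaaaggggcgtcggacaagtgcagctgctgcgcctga
MT1E: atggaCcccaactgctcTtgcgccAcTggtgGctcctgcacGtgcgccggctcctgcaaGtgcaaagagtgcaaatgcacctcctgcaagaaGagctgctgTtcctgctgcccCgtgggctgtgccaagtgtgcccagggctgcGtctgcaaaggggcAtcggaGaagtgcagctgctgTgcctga
MT1M: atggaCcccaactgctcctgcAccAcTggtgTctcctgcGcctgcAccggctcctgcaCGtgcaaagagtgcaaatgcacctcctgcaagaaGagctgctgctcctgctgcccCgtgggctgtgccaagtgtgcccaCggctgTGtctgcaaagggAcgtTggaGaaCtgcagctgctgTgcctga
Each of these sequences encodes 61 residues, of which 20 are cysteines. MT1E differs from MT2A at 14 bases (92.5% identity) and MT1M at 19 (89.8%), and MT1E and MT1M also differ from each other at 14 (92.5%). Since the authors counted only reads with a unique alignment, the sequenced reads of 50 bases can come only from parts of the transcript that are not repeated. Of all windows of 50 bases in the transcript, 5.34% were found exactly at another place in hg38 for MT1E, 5.76% for MT1A, 6.12% for MT1F, 11.1% for MT2A, 18.6% for MT1M, 20.3% for MT1X, 21.3% for MT1G and 1.40% for MTF1. Allowing 2 mismatches, the shares were 33.7% for MT1E, 36.0% for MT1A, 16.8% for MT1F, 55.4% for MT2A, 54.2% for MT1M, 44.5% for MT1X and 37.4% for MT1G. Most windows of these mRNAs thus have an exact match only in their own gene, but a read of MT2A or MT1M with sequencing errors may be lost or placed on a related gene. These windows are the same in every sample, and their part in the values was not tested.

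**Figure D1:**
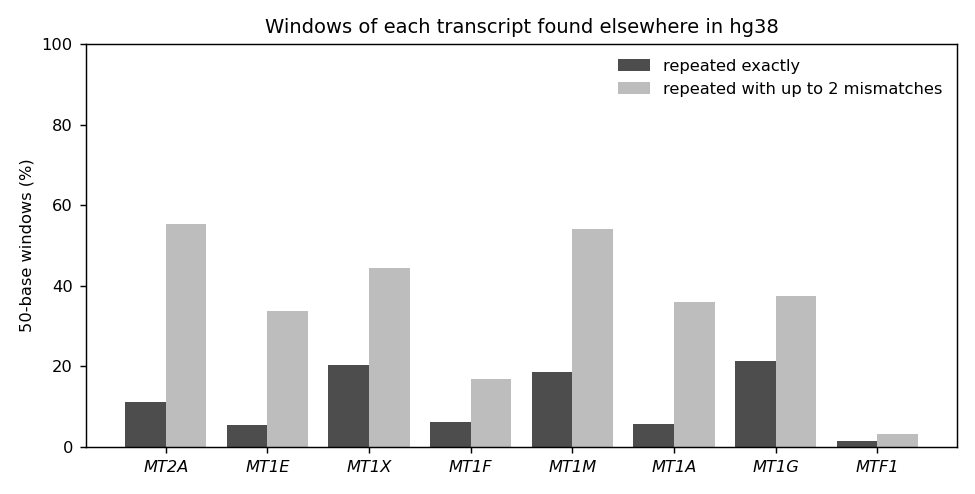
Share of 50-base windows of each transcript (vertical axis, percent) that occur elsewhere in hg38, exactly (dark bars) or with up to 2 mismatches (light bars). MT2A and MT1M have the highest shares with mismatches, 55.4% and 54.2%, and MTF1 the lowest at 3.21%.

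Promoter sequences are shown because the metal response elements through which MTF1 acts lie there. The RefSeq promoter table (GRCh38.p14) matched 3 of the 8 members, MT2A, MT1X and MTF1, and not MT1E, MT1F, MT1G, MT1M and MT1A. The 250 bases before the start of MT2A (chr16:56608334-56608583, plus strand) and of MT1X (chr16:56682220-56682469, plus strand) are given with the core of the metal response element, TGCACNC or TGCGCNC on either strand, in capitals.
MT2A promoter: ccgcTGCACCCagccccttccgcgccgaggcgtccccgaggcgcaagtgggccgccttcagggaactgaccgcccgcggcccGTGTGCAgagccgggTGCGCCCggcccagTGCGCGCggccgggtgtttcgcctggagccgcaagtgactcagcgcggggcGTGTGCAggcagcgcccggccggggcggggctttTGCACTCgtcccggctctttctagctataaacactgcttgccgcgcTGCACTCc
MT1X promoter: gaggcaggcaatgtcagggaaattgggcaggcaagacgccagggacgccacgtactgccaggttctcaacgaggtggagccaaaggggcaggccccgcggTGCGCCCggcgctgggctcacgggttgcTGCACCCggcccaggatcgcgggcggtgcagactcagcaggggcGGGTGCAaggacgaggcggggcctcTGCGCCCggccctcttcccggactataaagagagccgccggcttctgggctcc
The MT2A promoter held 7 matches and the MT1X promoter 4. Of 35116 promoters of the same length, 24.8% held at least 1 match, 0.37% held 4 or more and 0.0313% held 7 or more. The MTF1 promoter held 0 matches in this window, and SLC30A1, the zinc exporter gene, held 1. A match is a run of letters and not a measured binding site.

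MT2A was by far the most abundant metallothionein in each line, followed by MT1E and MT1X. Levels of different genes were compared by RPKM (reads scaled by gene length and library size), as the authors computed it. In DU145KO the mean RPKM was 173 for MT2A, 82.5 for MT1E, 24.9 for MT1X, 5.48 for MT1F, 4.07 for MT1M and 3.17 for MT1A. In DU145KO+vector the means were 207, 93.5, 26.5, 5.62, 2.74 and 1.64 RPKM in the same order, and in DU145KO+α2 180, 60.8, 20.8, 4.88, 1.22 and 0.878 RPKM. The order of the 6 genes was thus the same in the 3 lines. MT1M and MT1A overlapped in their RPKM in each line, MT1F and MT1M overlapped in DU145KO, and the other neighbours in the order did not overlap between samples. MT1G had at most 2 reads in any sample, under a floor of 3 counts, so no fold change is given for it.

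**Figure D2:**
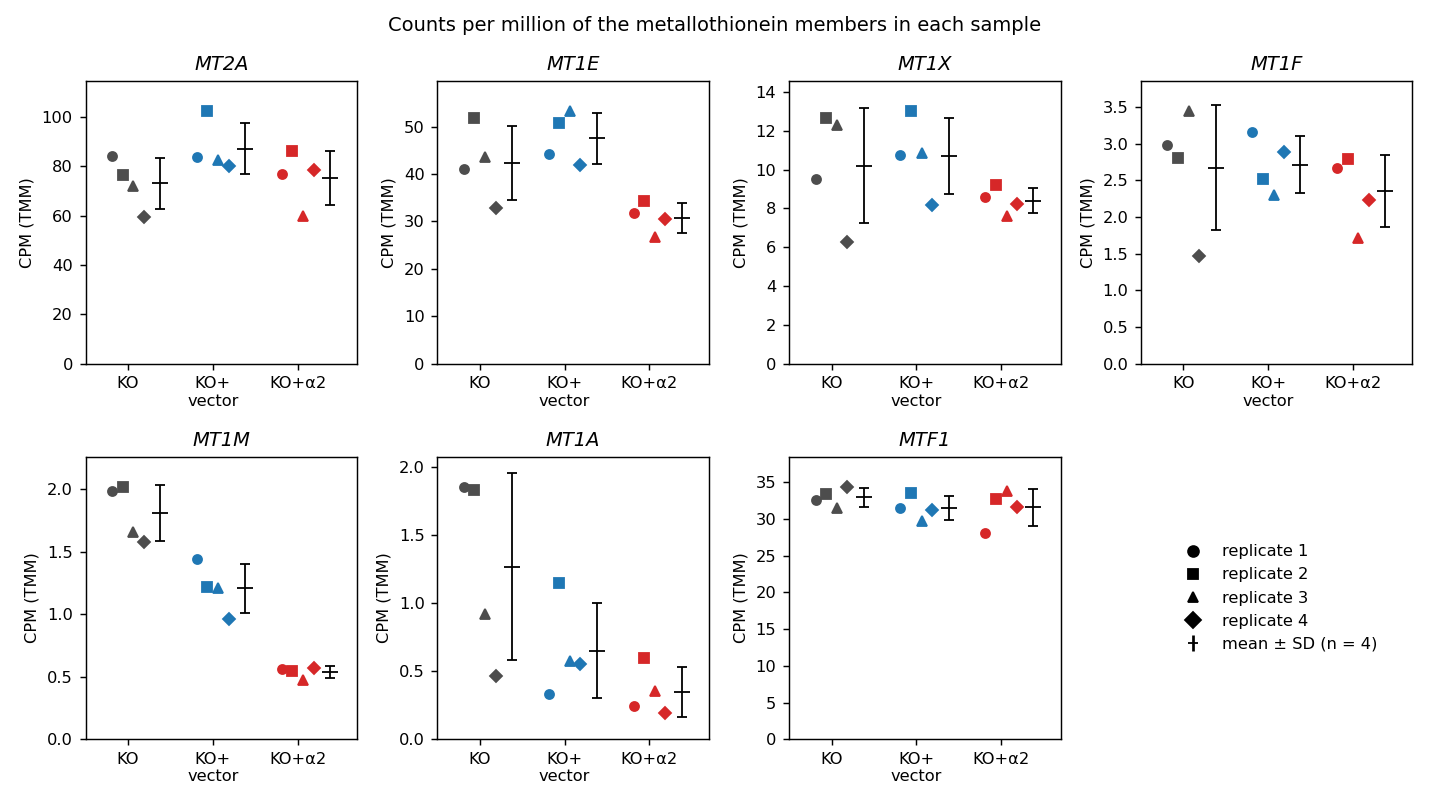
CPM (vertical axes, linear, each from 0) of the 7 tested members in each sample, by line, with symbols for the replicate number and the mean ± SD (n = 4) in black. The DU145KO+α2 samples lie below all other samples for MT1M, and below all DU145KO+vector samples for MT1E, while MTF1 lies between 28.0 and 34.3 CPM throughout.

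The main question of the design was what α2 integrin changes when it is put back, in DU145KO+α2 cells compared to DU145KO+vector cells. MT1M and MT1E were lower in DU145KO+α2, by 2.24-fold and 1.54-fold, and the other members did not pass the test. These 2 of 7 tested members, both lower, stand against 11.9% of all tested genes that passed the test (adjusted p below 0.05) and 5.95% that passed it as lower in DU145KO+α2. MT1M was also DE, which needs in addition a fold change above 2, as 2.21% of all genes were. When same-numbered samples were compared, with the replicate number as a block, the same 2 members passed as lower. In that fit 3911 of 14732 tested genes passed, 2013 of them as lower.

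MT1M, a metallothionein with low expression in these cells, had 0.559, 0.550, 0.473 and 0.573 CPM in DU145KO+α2 (replicates 1 to 4, as in all lists of values here), from 9, 11, 8 and 9 reads. DU145KO+vector had 1.44, 1.22, 1.21 and 0.964 CPM, from 26, 17, 21 and 14 reads. Every DU145KO+α2 sample was below every DU145KO+vector sample. The fitted log2 fold change of -1.16, with a standard error of 0.25, passed edgeR's quasi-likelihood test (adjusted p = 0.0053), and the two-sided exact permutation test of 4 samples against 4 gave p = 0.0286, the smallest it can give. In DU145KO MT1M was higher still, at 1.98, 2.02, 1.66 and 1.58 CPM from 27 to 33 reads. The 3 lines did not overlap.

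MT1E, the second most abundant metallothionein of these cells, had 31.7, 34.3, 26.8 and 30.4 CPM in DU145KO+α2. DU145KO+vector had 44.3, 50.7, 53.2 and 41.8 CPM. The DU145KO+α2 samples again lay below all DU145KO+vector samples. The fitted log2 fold change of -0.62, with a standard error of 0.12, passed the test of edgeR (adjusted p = 0.00368), with p = 0.0286 in the exact permutation test. In DU145KO the values were 41.0, 51.8, 43.6 and 32.7 CPM, and replicate 4 fell within the range of DU145KO+α2.

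MT2A, the isoform that most tissues express, had 76.9, 86.0, 59.9 and 78.4 CPM in DU145KO+α2. DU145KO+vector had 83.6, 102, 82.4 and 80.0 CPM. The lines overlapped, since replicate 2 of DU145KO+α2 was above 3 of the DU145KO+vector samples. In same-numbered pairs, DU145KO+α2 was lower in 4 of 4. The difference of -0.21 on the log2 scale (standard error 0.12) did not pass the test of edgeR (adjusted p = 0.307), nor with the replicate number as a block (adjusted p = 0.108). DU145KO had 84.2, 76.5, 71.9 and 59.6 CPM. MT1X was counted at 7.62 to 9.20 CPM in DU145KO+α2 and at 8.20 to 13.0 CPM in DU145KO+vector, and MT1F at 1.71 to 2.80 and 2.30 to 3.16 CPM. DU145KO had 6.26 to 12.6 CPM of MT1X and 1.46 to 3.44 CPM of MT1F. Both overlapped between the lines, with log2 fold changes of -0.35 (standard error 0.19, adjusted p = 0.283 from edgeR) for MT1X and -0.20 (standard error 0.24, adjusted p = 0.674) for MT1F. Each was lower in DU145KO+α2 in 3 of 4 same-numbered pairs with DU145KO+vector. MTF1, the zinc sensor itself, differed by 0.0057 on the log2 scale (standard error 0.08, adjusted p = 0.977 from edgeR), from means of 31.5 ± 2.51 and 31.4 ± 1.61 CPM (SD, n = 4), and its mean in DU145KO was 32.9 ± 1.24 CPM.

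MT1A, a low metallothionein like MT1M, varied widely between replicates. DU145KO+α2 had 0.248, 0.600, 0.354 and 0.191 CPM, from 3 to 12 reads. DU145KO+vector had 0.333, 1.15, 0.575 and 0.551 CPM, and DU145KO had 1.85, 1.83, 0.922 and 0.468 CPM. Replicate 2 was the highest of each transfected line, and the lines overlapped. Against DU145KO+vector the difference was -0.80 on the log2 scale (standard error 0.54, adjusted p = 0.404 from edgeR), which did not pass the test. MT1A was lower in DU145KO+α2 in 4 of 4 same-numbered pairs, and did not pass with the replicate number as a block either (adjusted p = 0.148 from edgeR).

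**Figure D3:**
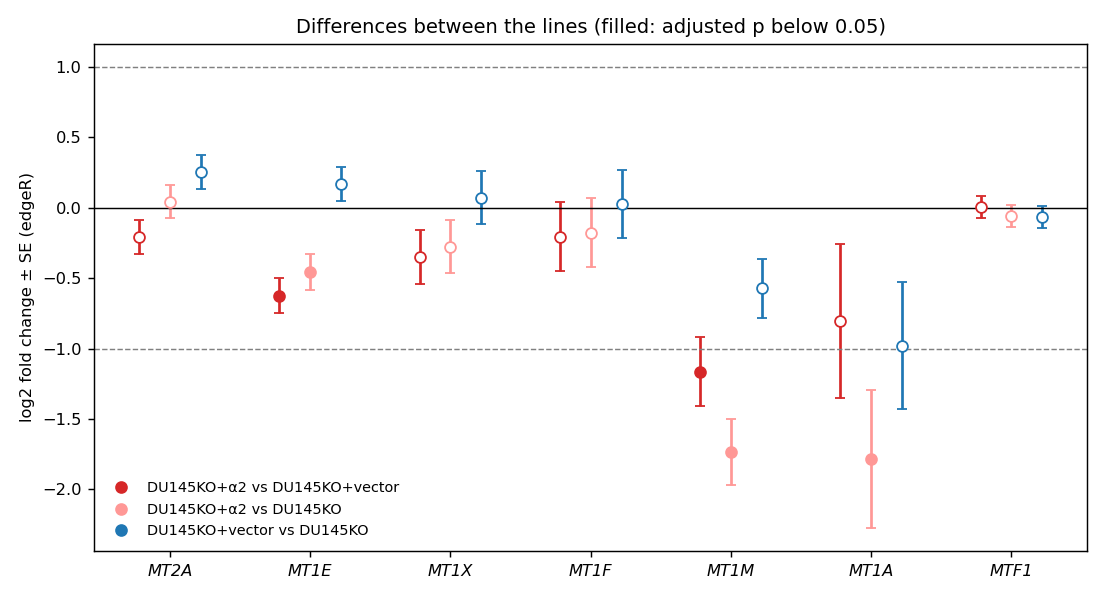
Log2 fold change with its standard error (vertical axis) of the 7 tested members in the 3 comparisons, from edgeR; filled circles passed the test and dashed lines mark a fold change of 2. MT1M and MT1E are filled in both comparisons of DU145KO+α2, MT1A against DU145KO alone, and no member in DU145KO+vector compared to DU145KO.

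Compared to DU145KO, from which both transfected lines were made, DU145KO+α2 had lower MT1M, MT1A and MT1E. These were 3 of 7 tested members, where 8.17% of all genes passed the test and 5.08% passed it as lower, and MT1M and MT1A were DE, as 2.1% of all genes were. The DU145KO+α2 samples are the same in both comparisons, so the lower values in the second are not independent of those in the first. MT1M was 3.33-fold lower (log2 fold change -1.73, standard error 0.23, adjusted p = 0.000248 from edgeR) and did not overlap. MT1A was 3.44-fold lower (log2 fold change -1.78, standard error 0.49, adjusted p = 0.0332 from edgeR), but replicate 4 of DU145KO, with 8 reads, lay below replicate 2 of DU145KO+α2, with 12, and the exact permutation test gave p = 0.0571. MT1E was 1.37-fold lower (log2 fold change -0.46, standard error 0.12, adjusted p = 0.0332 from edgeR) and also overlapped, with p = 0.0571 in the exact permutation test.

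With the replicate number as a block, which compares same-numbered samples, the adjusted p from edgeR against DU145KO was 0.00107 for MT1A and 0.00117 for MT1E, and each was lower in DU145KO+α2 in 4 of 4 pairs. In that fit 3286 of 14732 tested genes passed, 1823 of them as lower. In the fit without the block, which ignores the pairing, the calls of MT1A and MT1E were lost when some samples were left out. Without replicate 1 or 2 of DU145KO, or without replicate 1, 3 or 4 of DU145KO+α2, neither passed the test, with adjusted p of 0.0605 to 0.12 for MT1E and 0.0811 to 0.115 for MT1A, and without replicate 3 of DU145KO MT1E did not (adjusted p = 0.0716). MT1E missed the threshold in a fit of these lines alone (adjusted p = 0.0554) and MT1A in voom with limma (adjusted p = 0.0636). MT2A, MT1X, MT1F and MTF1 did not pass the test against DU145KO, with log2 fold changes of 0.04, -0.28, -0.18 and -0.06 in this order.

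Between the lines without α2 integrin, DU145KO+vector and DU145KO, 0 of the 7 tested members passed edgeR's test, where 2.34% of all genes did. DESeq2 and voom with limma also called 0. Of the 7, MT1M and MT1A had the lowest unadjusted p from edgeR, 0.0153 and 0.0458, and the share of all genes with such values was not computed. MT1M differed by -0.57 on the log2 scale (standard error 0.21, adjusted p = 0.191 from edgeR), and each DU145KO+vector sample was below each DU145KO sample. MT1A had -0.98 (standard error 0.45, adjusted p = 0.321), and its samples overlapped. MT2A was 0.25 (standard error 0.12, adjusted p = 0.336) and MT1E 0.17 (standard error 0.12, adjusted p = 0.589) on the log2 scale, both above DU145KO, without passing the test. With gene length, GC content and replicate number in the fit, MT1M (adjusted p = 0.0472) and MT1A (adjusted p = 0.0492) passed as lower in DU145KO+vector. In that fit 2281 of 14732 tested genes passed, 1263 of them as lower.

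Across the 6 tested metallothioneins, without MTF1, the median log2 fold change of DU145KO+α2 was -0.49 against DU145KO+vector and -0.37 against DU145KO, where the median of all tested genes was -0.0062 and -0.0031. Of the 6, 6 had a negative value in the former comparison and 5 in the latter, with MT2A as the exception. Of all tested genes, 51.4% and 50.8% were negative in the same order. The 6 genes also varied together between replicates of a line, so their signs are not separate results. In DU145KO+vector compared to DU145KO the median was 0.05 and 2 of 6 were negative, MT1M and MT1A. The summed CPM of the 7 metallothioneins was 96.8 to 133 in DU145KO+α2, 135 to 171 in DU145KO+vector and 102 to 148 in DU145KO. It was set mainly by MT2A and MT1E, and DU145KO+α2 overlapped DU145KO but not DU145KO+vector.

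The make-up of the metallothionein mRNA differed between the lines in a way that does not depend on the scaling of the libraries. MT2A supplied 61.9% to 65.3% of the reads of the 7 genes in DU145KO+α2, 54.7% to 59.8% in DU145KO+vector and 51.8% to 59.4% in DU145KO. The number of MT1E reads per MT2A read was 0.388 to 0.447 in DU145KO+α2, 0.496 to 0.645 in DU145KO+vector and 0.487 to 0.677 in DU145KO. For MT1M it was 0.0064 to 0.00789, 0.0119 to 0.0172 and 0.0231 to 0.0265 in the same order. Both ratios were lower in each DU145KO+α2 sample than in any other sample, and the MT1M ratio also did not overlap between the other lines. MT1X reads per MT2A read overlapped in all lines, at 0.105 to 0.127, 0.102 to 0.132 and 0.105 to 0.171. These ratios are built from the genes already compared and were not tested.

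**Figure D4:**
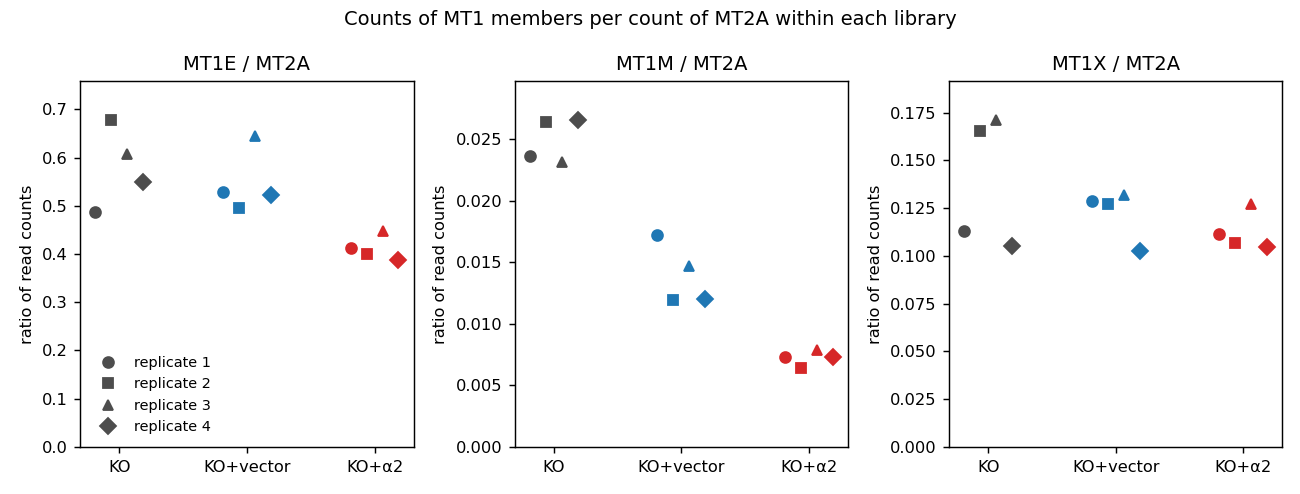
Reads of MT1E, MT1M and MT1X per read of MT2A in each library (vertical axes, from 0), by line, with symbols for the replicate number. For MT1E (0.388 to 0.447) and MT1M (0.0064 to 0.00789) the DU145KO+α2 samples lie below all other samples, and for MT1X the lines overlap.

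Within a line, the metallothioneins moved together from replicate to replicate and MTF1 did not follow them. After the line means were subtracted, the 15 pairs of metallothioneins had Pearson's r between 0.240 (MT1M and MT1A) and 0.874 (MT1E and MT1X), with a median of 0.606, over 12 samples that share library and depth within each point. The 6 pairs with MTF1 had r from -0.447 to 0.237. These values are descriptive. In DU145KO, replicate 4 was the lowest sample for 6 of the 6 tested metallothioneins, on average 0.55 below the line mean on the log2 scale. In DU145KO+α2, replicate 3 was the lowest for 5 of 6, with a mean deviation of -0.19, and replicate 2 the highest for 5 of 6, with 0.25. In DU145KO+vector, replicate 4 was the lowest for 4 of 6. Replicate 2 thus had the highest mean of its line in each line, and MTF1 deviated by at most 0.17 in any sample.

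**Figure D5:**
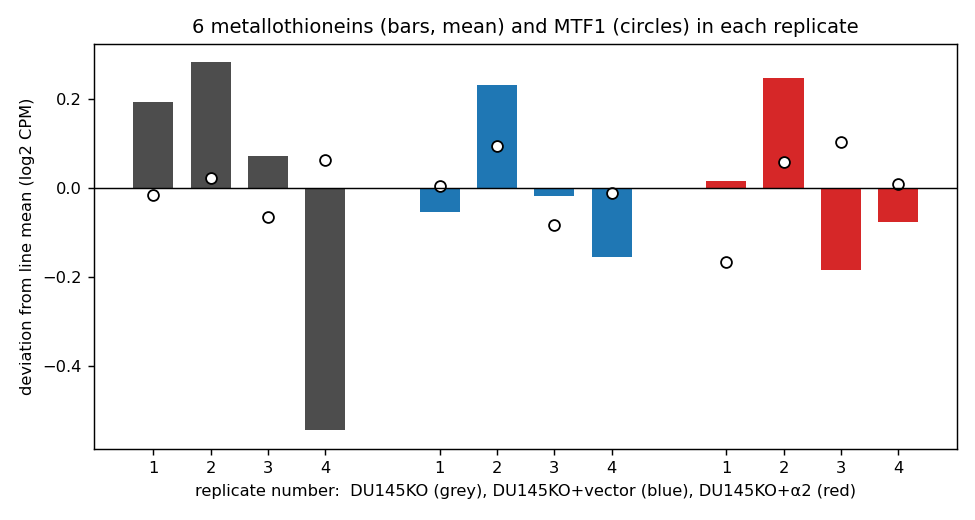
Deviation from the line mean in log2 CPM (vertical axis) in each replicate, as the mean of the 6 tested metallothioneins (bars) and for MTF1 (circles). Replicate 2 has the highest bar in each line, 0.23 to 0.28, and replicate 4 of DU145KO the lowest at -0.55.

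Of 10 other genes of the family, 9 are in the tables and 2 had enough reads to be tested, MT1L and MT1B. MT1L, annotated as a pseudogene, had 6.68 to 10.4 CPM in DU145KO+α2, 5.00 to 7.16 in DU145KO+vector and 6.62 to 10.1 in DU145KO. Against DU145KO+vector it was 0.43 higher in DU145KO+α2 on the log2 scale (standard error 0.18, adjusted p = 0.144 from edgeR), opposite in sign to the 6 metallothioneins. With the replicate number as a block, where 3911 of 14732 tested genes passed (1898 as higher), MT1L passed the test (adjusted p = 0.0134). Its windows matched elsewhere in 70.8% of cases with up to 2 mismatches, and reads per MT1E read were 0.249 to 0.324 in DU145KO+α2, 0.0941 to 0.171 in DU145KO+vector and 0.153 to 0.247 in DU145KO. MT1B had log2 fold changes of -0.62 (adjusted p = 0.182 from edgeR) against DU145KO+vector and -0.39 (adjusted p = 0.492) against DU145KO. MT1DP had 2 to 9 reads per sample, MT1H, MT1IP, MT1JP and the brain form MT3 at most 2, and MT4 and MT1HL1 0.

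Of 14 zinc importers, which move zinc into the cytosol, 11 were tested. Against DU145KO+vector 2 rose and 0 fell in DU145KO+α2, where 5.96% of all genes rose, SLC39A14 (201 ± 5.90 compared to 142 ± 14.9 CPM, SD, n = 4) with a log2 fold change of 0.50 (adjusted p = 0.00527 from edgeR) and SLC39A9, a Golgi and surface importer, with 0.24 (adjusted p = 0.0147). Against DU145KO 2 rose and 0 fell, where 3.09% of all genes rose, SLC39A10, a surface importer, with 0.26 (adjusted p = 0.033 from edgeR) and SLC39A9 with 0.22 (adjusted p = 0.0361). The median of the list was 0.13 and 0.08. SLC39A14 did not pass against DU145KO, with 0.24 (adjusted p = 0.2 from edgeR). It had -0.26 in DU145KO+vector compared to DU145KO (adjusted p = 0.243). Of 10 zinc exporters, 7 were tested and 0 passed against DU145KO+vector, where 11.9% of all genes passed. Against DU145KO, where 8.17% of all genes passed and 5.08% fell, 1 exporter fell. This was SLC30A5, which loads zinc into the secretory pathway, by 0.27 on the log2 scale (adjusted p = 0.0352 from edgeR). For 7 genes, both counts are near the shares of all genes. SLC30A5 had nearly the same value in DU145KO+vector compared to DU145KO, -0.26 (adjusted p = 0.0842), and -0.0088 between the transfected lines. The exporters and importers were not tested against each other. The exporter list had medians of 0.03 in both comparisons.

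The lists that follow stand beside these shares of all tested genes. Against DU145KO+vector 11.9% passed (5.96% rose and 5.95% fell), and against DU145KO 8.17% passed (3.09% rose and 5.08% fell). Of 11 copper handling genes, SLC31A2, a copper transporter of endosomes, fell by 0.48 on the log2 scale against DU145KO+vector (adjusted p = 0.0358 from edgeR), and 0 passed against DU145KO, with list medians of -0.07 and -0.13. None of 9 metal and heat stress genes (HMOX1, heat shock proteins and HSF1) passed in any comparison, with medians of -0.12 and -0.15 against DU145KO+vector and DU145KO. For lists this short, the copper and stress counts are near the shares of all genes. Of 8 glucocorticoid responsive genes, 7 were tested. SGK1, a kinase gene that glucocorticoids induce, rose by 0.99 (adjusted p = 0.00576 from edgeR) and KLF9, a transcription factor gene, by 0.67 (adjusted p = 0.00394) on the log2 scale against DU145KO+vector, and SGK1 by 0.84 (adjusted p = 0.0186) against DU145KO, with list medians of 0.24 and 0.05. KLF9 did not pass against DU145KO, with 0.38 (adjusted p = 0.097 from edgeR), and had -0.29 in DU145KO+vector compared to DU145KO (adjusted p = 0.321). In DU145KO+vector compared to DU145KO, 2.34% of all genes passed the test. From these 5 lists 0 genes passed there, which is near that share, and the list medians lay between -0.19 and 0.03.

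Around the cluster on chromosome 16, 18 other genes within 1 Mb were tested. Against DU145KO+vector 2 fell and 0 rose in DU145KO+α2, NLRC5, a regulator of MHC class I genes, with a log2 fold change of -0.71 (adjusted p = 0.000267 from edgeR) and PLLP, a membrane protein gene, with -0.54 (adjusted p = 0.00131). These are 2 of 18 genes, where 11.9% of all genes passed the test and 5.95% fell. Both also fell against DU145KO, where 8.17% of all genes passed and 5.08% fell, with -0.74 (adjusted p = 0.00025) and -0.33 (adjusted p = 0.0353). The median of the 18 was -0.10 against DU145KO+vector and -0.05 against DU145KO, with a range from -0.71 to 0.08 and from -0.74 to 0.12.

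The genes most like the metallothioneins were sought among 12845 genes outside the family whose average log2 CPM was 1 or more, by Pearson's r with the mean log2 CPM of the 6 tested metallothioneins over the 12 samples. The 5 highest were PPIC (0.956), TAPBP (0.947), LYN (0.937), SIL1 (0.930) and KLF13 (0.922). PPIC, TAPBP, LYN and SIL1 also passed the test as lower in DU145KO+α2 against DU145KO+vector, as 5.95% of all genes did. Their log2 fold changes ran from -0.34 to -0.48, and KLF13 had -0.11. All were picked over these same samples, line differences included, so lower values in DU145KO+α2 follow in part from the selection. With the line means subtracted the 5 highest included PORCN (0.942), KLF13 (0.911), EIF4B (0.904) and WDR41 (0.900), and only KLF13 was in both groups of 5. With 12 samples and this many genes, high values of r arise by selection, and they are given as a description.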

How the data were processed

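RNA of 12 spheroid samples, 3 lines with 4 replicates each, was sequenced as single-end reads of 50 bases from stranded mRNA libraries. Per the methods and the submitters' processing notes, reads were base called with bcl2fastq 1.8.4, aligned to hg38 with TopHat2 2.1.0, and uniquely aligned reads were counted per gene with Subread 1.5.0. The strand setting of the counting is not given in the sources used here. The authors deposited the read counts without normalization. The authors also deposited RPKM values, made from counts by TMM scaling and gene length, which were used for levels between genes alone.

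Counts were tested in R 4.3.3 with edgeR 4.0.16 (robust quasi-likelihood F-test, TMM, filterByExpr with a minimum count of 10, 14732 genes, all 12 samples in one model), with Benjamini-Hochberg adjustment over the tested genes. A gene passed the test at an adjusted p below 0.05 and was DE with a fold change above 2 as well. Single values were compared by two-sided exact permutation tests. Alternatives were DESeq2 1.42.0 (Wald test, or size factors alone), voom with limma 3.58.1, library size alone, no filter, a fit of the compared lines only, at least 10 counts in each of the 12 samples, the replicate block, a gene length and GC content correction (91.0% of tested genes had both values) with and without the block, and each sample left out.

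Lines and replicate numbers come from the sample labels. Same-numbered samples of different lines deviated together from their line means (r = 0.135 to 0.554 over 12 of 12 pairs, all above 0.1), so the numbers pair the samples. What a number stands for is not given in the sources used here. No replicate was a repeat of another, with a chi-square per gene of 7.43 to 25.5 between replicates. Without molecular identifiers on the reads, the floor of 3 counts covers counting error alone.

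The members and the gene lists were chosen with earlier results of these data known. Genes named are the members, ITGA2, other family genes, list genes and neighbours within 1 Mb that passed the test, and the 5 genes most like the mean of the tested metallothioneins. Coding sequences come from GENCODE and promoters and positions from RefSeq, all of the build hg38. The script was tested on simulated counts. Some items within these rules are not reported here.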

Additional observations from a re-analysis of the deposited data

Results flagged for a closer look

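MT2A in replicate 2 of DU145KO+vector stood apart from its line, at 102 CPM where the other replicates were at 80.0 to 83.6 CPM. Its gap to the nearest sample was 0.838 of the range of the line, above the 95% critical value of Dixon's test for 4 samples. MT1G in replicate 2 of DU145KO+α2 was flagged with a gap of 1 times the range, from 1 read where the other replicates had 0, which is under the floor of 3 counts. Of 24 groups of 4 samples examined (8 members in 3 lines), 2 were thus flagged, where chance flags about 1 in 20.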

How the results depend on the processing

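Of 456 values of members under the alternatives, 424 kept their direction and their side of the threshold, 13 no longer passed the test, 2 passed it newly and 17 changed sign, all 17 in values that never passed. MT1M and MT1E stayed lower and past the threshold against DU145KO+vector under every alternative that tested them. With at least 10 counts in every sample, MT1M and MT1A were not tested, which left 1 member against DU145KO+vector and 1 against DU145KO. The length and GC content correction with the replicate block gave 2 members in DU145KO+vector compared to DU145KO. Leaving out 1 sample gave 2 members throughout against DU145KO+vector, 1 to 3 against DU145KO and 0 between the lines without α2 integrin. The replicate block, which uses the pairing, changed no call of a member (2, 3 and 0 called) but raised the number of all genes called from 1754 to 3911 against DU145KO+vector, from 1203 to 3286 against DU145KO and from 344 to 1980 in DU145KO+vector compared to DU145KO. With the correction and the block these were 4330, 3674 and 2281. DESeq2 called 587 genes in DU145KO+vector compared to DU145KO, and leaving out samples gave 159 to 526.

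Sign changes were as follows. MT2A against DU145KO came to -0.0061 with the correction and block and, with 1 sample left out, to values from -0.0413 (without replicate 4 of DU145KO) to 0.1501. In DU145KO+vector compared to DU145KO, MT1F came to -0.0391 with the correction and -0.0341 with the block too, and MTF1 to 0.0008. With 1 sample left out, MT1F came to -0.1778 to 0.1766 and MT1X to -0.1038 to 0.1946 there, the lowest without replicate 4 of DU145KO. MTF1 against DU145KO+vector came to -0.0025 with library size alone, -0.0298 with the correction and -0.0282 with the block too, and to -0.0221 to 0.0594 with 1 sample left out. MT1M and MT1A had 33 reads or fewer per sample.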
